A study of Mus musculus with 12 samples.

Results

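Cells detect viral RNA in the cytosol through RIG-I, the product of Ddx58, and MDA5, the product of Ifih1, which signal through the mitochondrial adaptor MAVS, and in endosomes through TLR3. These sensors activate the transcription factors IRF3 and IRF7, which switch on Ifnb1, the gene for interferon beta. Interferon beta binds the receptor made by IFNAR1 and IFNAR2, and a complex that holds STAT2 and IRF9 then induces interferon-stimulated genes by binding the interferon-stimulated response element (ISRE) in their promoters. Pluripotent cells are known for a weak interferon response, and RNA from endogenous retroviruses is one of the substrates these sensors can bind. The 39 genes described here hold 5 sensors and adaptors, 5 transcription factors, interferon beta with its receptor (3 genes), 20 antiviral effectors, 2 chemokines and 4 genes of antigen presentation. They were chosen by name from the 26061 genes in the table. Of the 39, 22 had enough reads to be tested and 17 did not.

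Expression was measured in 12 poly(A) RNA-seq libraries, 3 in each of 4 groups. All came from Tet2 KO mouse ESCs grown without feeders, into which WT TET2 or a catalytic mutant (H1304Y, D1306A) had been stably returned with a PiggyBac vector. All were infected with an shRNA against Setdb1, selected with puromycin from 48 hours after infection and harvested 3 days later. One WT and one mutant group were grown in 2i medium with LIF (naïve) and the others in serum with LIF (primed). The labels do not say that the 3 libraries of a group came from separate cultures, so p-values measure only the spread between these libraries, which may be technical. No libraries without the Setdb1 shRNA were analysed here, and the values therefore measure neither the extent of the depletion nor a response to loss of SETDB1. Gene reads per library were 10090165, 12357101 and 12013721 (naïve WT), 14322507, 11187137 and 20189214 (naïve mutant), 8066662, 9790961 and 21335933 (primed WT), and 8979339, 11003142 and 11140836 (primed mutant). Levels are given below as normalised reads, that is reads divided by the size factor of the library. Differences are given between variance-stabilised values on a log2 scale, which understate the change of genes with few reads.

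Setdb1 and Tet2 were read in every library. Setdb1 had 186, 155 and 268 normalised reads in the naïve WT libraries and 162, 149 and 236 in the naïve mutant libraries, against 265, 271 and 310 and 157, 280 and 347 in primed ESCs. Its difference was not called between media (limma, adjusted p = 0.167 in the WT line and 0.201 in the mutant line) or between lines (adjusted p = 0.857 naïve and 0.788 primed). Tet2 had 6786, 8672 and 16372 normalised reads in the naïve WT libraries and 1525, 1763 and 3918 in the naïve mutant libraries, against 28783, 24399 and 34786 and 5756, 9403 and 9846 in primed ESCs. The lines therefore differed in Tet2 RNA as well as in its catalytic site, by log2 differences of 2.16 (SE 0.34, limma, adjusted p = 0.0154) in naïve and 1.84 (SE 0.34, adjusted p = 0.0297) in primed ESCs. Both lines also had less Tet2 RNA in naïve than in primed ESCs, by -1.55 (adjusted p = 0.00207) and -1.87 (adjusted p = 0.000515). The counts do not tell Tet2 reads of the vector from those of the KO allele. By Western blot, the paper reports similar protein levels for the WT and mutant enzymes in the rescue lines. Protein was not measured in these libraries, so the RNA difference is no measure of a difference in protein. Without naïve mutant replicate 1 or 2 or naïve WT replicate 3 the naïve adjusted p for the lines was 0.131, 0.121 and 0.081, and with the 6 naïve libraries alone it was 0.0526. Without primed mutant replicate 1 or 2 or primed WT replicate 1, 2 or 3 the primed one was 0.150, 0.0514, 0.140, 0.0653 and 0.140.

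The libraries carried the markers of pluripotent cells. All 5 pluripotency markers, among them Pou5f1 and Nanog, had more than 500 reads in every library, and the markers of the 2 states were mixed. Of these 5, Utf1 was called lower in naïve ESCs in both lines (-2.18 and -2.25, limma, adjusted p = 1.44e-06 and 1.13e-06), and Nanog was called higher in the WT line (0.57, adjusted p = 0.0357) and not in the mutant line (0.40, adjusted p = 0.137). Of the 7 primed markers, Dnmt3l was lower in naïve ESCs by -5.18 in the WT line (limma, adjusted p = 6.12e-10) and by -5.17 in the mutant line (adjusted p = 8.62e-10), and Dnmt3a, Dnmt3b, Otx2 and Pou3f1 were also called lower in both lines. Lef1, of the same list, was called higher, by 1.47 and 0.86. Fgf5, also of that list, had too few reads to be tested, with 0 normalised reads in every naïve library and 3 to 20 in the primed ones. Of the 7 naïve markers in the table, Prdm14 was called higher in naïve ESCs in both lines, by 1.64 and 1.63, while Zfp42 (-0.94 and -1.29) and Nr0b1 (-0.78 and -0.85) were called lower and Esrrb, Klf2, Klf4 and Tbx3 were not called. Of the blood cell markers, Ptprc, Lyz2 and Emr1 were at 0 reads in all 12 libraries, and of the fibroblast markers Col1a2, Col3a1 and Postn were. The other 4 of 7 blood cell markers, led by Cd68, had summed normalised reads of 129 to 310 per naïve library and 160 to 333 per primed library. The other 4 of 7 fibroblast markers, led by Thy1, had 67 to 94 per naïve library and 29 to 61 per primed library. Thy1 itself was higher in naïve ESCs by 0.85 and 1.40 on the log2 scale (limma, adjusted p = 0.00474 and 9.34e-05), and Lum, of the same list, was lower in the mutant line (-0.95, adjusted p = 0.0161). Csf1r, a blood cell marker, was lower in naïve ESCs of the WT line (-0.64, adjusted p = 0.0192). The 6 primitive endoderm markers, led by Sox17, had 40 to 80 and 58 to 105, and Dab2 of that list was lower in naïve ESCs in both lines (-1.47 and -0.85, limma, adjusted p = 0.000228 and 0.0127). Sox7 of that list had too few reads to be tested, with at most 1 normalised read in a naïve library and 5 to 24 in the primed ones. The part of these genes in the results below was not tested.

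Interferon beta, 10 of the 20 antiviral effectors and both chemokines had too few reads to be tested. Ifnb1, Ifit1, Ifit3 (the Ifit proteins bind viral RNA) and the chemokine gene Ccl5 had 0 reads in all 12 libraries, which allows a share of at most 1.41e-05% of the gene reads in the deepest library and 3.72e-05% in the shallowest (3 reads, counting error only). For Ifit3 this limit holds for reads given to it, since 41.1% of its 75-base stretches occur also in I830012O16Rik, and for Ifit1 5.19% occur also in 2010002M12Rik. Another 8 members had 1 to 8 reads over all 12 libraries together. Among these, the sensor gene Ifih1 had 3 reads, Isg15, which encodes a ubiquitin-like modifier, had 1, the GTPase genes Mx1 and Mx2 had 1 and 2, Oasl2 had 8, Usp18, whose product removes ISG15, had 5, and Psmb8, an immunoproteasome subunit gene, had 5. Cxcl10, the more abundant of the 2 chemokine genes, had 4 reads, at 0, 0 and 0 normalised reads in naïve WT, 1, 0 and 1 in naïve mutant, 0, 2 and 0 in primed WT and 0, 0 and 0 in primed mutant libraries. The last 5 untested members had slightly more, with 35 reads for Tlr3, 50 for Irf7, 44 for Ifit2, and 22 each for Oasl1 and Rsad2, and at most 13 reads in any one library. Without the filter on low values 13 of the 17 could be fitted, and 0 were called in any comparison (limma), with 3 values at an unadjusted p under 0.05. The nearest to a call between media was Oasl1 in the WT line (0.55, adjusted p = 0.0554), with at most 5 reads in a library.

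The tested members spanned a wide range of levels. Mean levels over all libraries, as normalised reads per kb of exon, were highest for the membrane proteins that block viral entry, at 4580 for Ifitm2, 3870 for Ifitm3 and 1930 for Ifitm1. Bst2, which encodes tetherin and holds budding virions at the cell surface, followed at 1530, and Trim25, a ubiquitin ligase that acts on RIG-I, at 419. B2m was at 156, Oas1a at 126 and Ifi35 at 115. The 3 Ifitm genes, Bst2 and Trim25 took 73.7% of all reads on the 39 members, and the members together took 0.107% to 0.142% of the gene reads of a library. The receptor gene Ifnar1 was at 98.6 normalised reads per kb, Irf3 at 97.4, Mavs at 80.8, the RNA editing enzyme gene Adar at 74.6, Stat2 at 70.4, Ddx58 at 58.3 and Eif2ak2, which encodes the kinase PKR, at 42.7. The plot of all members by library shows both sets.

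**Figure D1:**
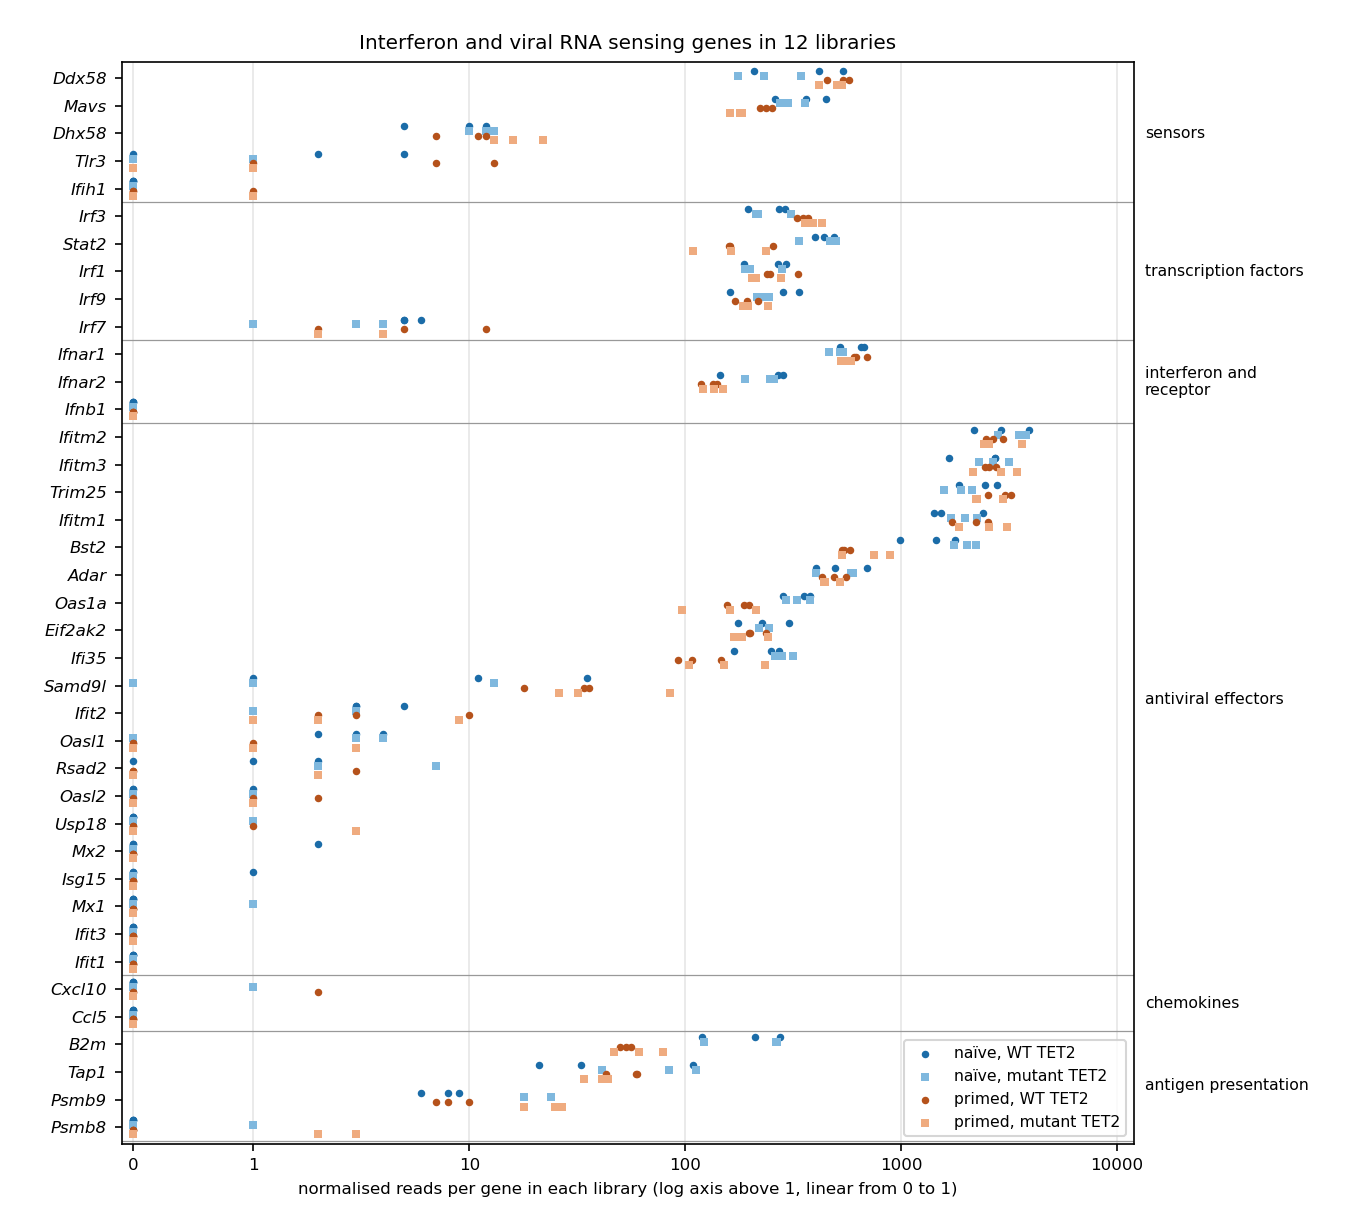
Normalised reads of the 39 members in each of the 12 libraries (x axis, logarithmic above 1 and linear from 0 to 1), ordered by role and mean level. Each point is one library, coloured by group. Ifnb1, Ifit1, Ifit3 and Ccl5 sit at 0 in every library, while Ifitm2 lies between 2174 and 3899.

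Both untested and tested members had the letters of the ISRE in their promoters. Of the 39 members, 34 had a promoter in the RefSeq set (mouse assembly GRCm38.p6, windows of 300 bases with 250 before the start and 50 after it). Those not found were Dhx58, Mx1, Mx2, Usp18 and Ccl5. The ISRE core was searched as GAAANNGAAA on both strands, where N is any base, and was found in 14 of the 34 members. Counted by window, it was in 14 of the 39 windows of these members (35.9%) against 3.44% of all 32851 windows. It was in 5 of 10 members called between media (B2m, Bst2, Ddx58, Oas1a and Stat2), in 3 of 11 that were tested and not called, and in 6 of 13 untested ones. The motif TTCNNNGAA of the gamma-activated site was in 11 of the 34 members. Counted by window, it was in 11 of the 39 (28.2%) against 8.3% of all windows. The members were chosen by name as genes of the interferon pathway, so these higher shares describe the list and are no result of these libraries. Shown 5′ to 3′ along the gene are the 250 bases before the start of 4 genes higher in naïve ESCs in both lines (Bst2, B2m, Stat2, Oas1a). Those of 2 untested genes (Isg15, with 1 read in all, and Ifit3, with 0) are shown too, so that both kinds can be compared. The capitals mark ISRE core matches, and matches that overlap run together. Each RefSeq window was found once, without a mismatch, in mm9, and the mm9 position is given.
Bst2 chr8:74061372-74061621 (- strand): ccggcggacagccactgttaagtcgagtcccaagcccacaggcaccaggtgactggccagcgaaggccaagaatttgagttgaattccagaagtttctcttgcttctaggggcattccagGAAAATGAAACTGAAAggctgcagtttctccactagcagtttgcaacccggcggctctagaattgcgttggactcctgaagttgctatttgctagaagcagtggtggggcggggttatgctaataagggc
B2m chr2:121973173-121973422 (+ strand): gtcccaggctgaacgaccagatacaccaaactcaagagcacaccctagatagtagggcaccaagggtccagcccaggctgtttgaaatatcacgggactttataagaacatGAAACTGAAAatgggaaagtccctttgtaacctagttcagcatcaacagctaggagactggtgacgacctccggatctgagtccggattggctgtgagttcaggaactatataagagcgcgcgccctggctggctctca
Stat2 chr10:127707304-127707553 (+ strand): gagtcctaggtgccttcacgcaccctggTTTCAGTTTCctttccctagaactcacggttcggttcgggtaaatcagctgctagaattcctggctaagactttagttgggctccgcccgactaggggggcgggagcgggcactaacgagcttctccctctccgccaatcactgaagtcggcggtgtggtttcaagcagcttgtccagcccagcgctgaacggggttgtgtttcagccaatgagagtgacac
Oas1a chr5:121357535-121357784 (- strand): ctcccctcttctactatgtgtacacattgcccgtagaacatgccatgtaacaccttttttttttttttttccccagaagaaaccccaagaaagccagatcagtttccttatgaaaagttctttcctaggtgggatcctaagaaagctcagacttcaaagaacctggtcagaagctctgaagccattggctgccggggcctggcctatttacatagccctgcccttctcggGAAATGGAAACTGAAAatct
Isg15 chr4:155574928-155575177 (- strand): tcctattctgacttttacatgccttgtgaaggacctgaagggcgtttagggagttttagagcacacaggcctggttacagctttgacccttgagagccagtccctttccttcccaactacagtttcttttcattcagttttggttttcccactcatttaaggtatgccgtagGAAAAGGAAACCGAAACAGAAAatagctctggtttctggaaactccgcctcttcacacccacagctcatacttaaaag
Ifit3 chr19:34657769-34658018 (+ strand): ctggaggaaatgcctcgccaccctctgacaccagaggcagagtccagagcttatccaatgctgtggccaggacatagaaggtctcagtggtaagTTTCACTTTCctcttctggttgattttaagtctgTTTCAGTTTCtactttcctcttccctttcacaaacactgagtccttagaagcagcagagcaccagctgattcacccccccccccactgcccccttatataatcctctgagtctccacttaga
Bst2, Oas1a and Ifit3 held 2 matches each, Isg15 held 3, and B2m and Stat2 held 1 each. A match is a run of letters and not evidence of binding.

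Naïve ESCs were compared with primed ESCs within each rescue line, which asks how levels of the antiviral machinery differ between the culture states. Tet2 RNA was also lower in naïve ESCs of both lines (-1.55 and -1.87), and the parts of medium and Tet2 RNA cannot be told apart. In the WT line 7 of the 22 tested members were higher in naïve ESCs (adjusted p under 0.05, limma), and these were Bst2, B2m, Stat2, Oas1a, Ifi35, Ifnar2 and Mavs. The share of all 14185 tested genes called higher was 18.6%, and 0 members were called lower against 17.3% of all genes. In the mutant line the same 7 members were higher (18.3% of all genes were) and 3 were lower, Samd9l, Ddx58 and Irf3 (16.9% of all genes). Called in either direction were 31.8% of the members in the WT line against 35.9% of all genes, and 45.5% in the mutant line against 35.2%. These shares in either direction lie near the background. By direction, 31.8% of the members were called higher in each line, above the shares of all genes, and 0% and 13.6% lower, below them. This split was not tested. The median difference of the 22 members was 0.01 in the WT line and 0.15 in the mutant line, beside 0.01 and -0.01 over all tested genes. By role, the higher genes were 1 of 3 tested sensors and adaptors, 1 of 4 transcription factors, 1 of 2 receptor genes, 3 of 10 effectors and 1 of 3 antigen presentation genes, in each line. The WT and the mutant comparison share no library but one estimate of the spread, and all 7 members called in the WT line had the same sign in the mutant line. They made up 100% of the WT calls and 70% of the mutant calls, beside 72.5% and 74% for all genes.

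**Figure D2:**
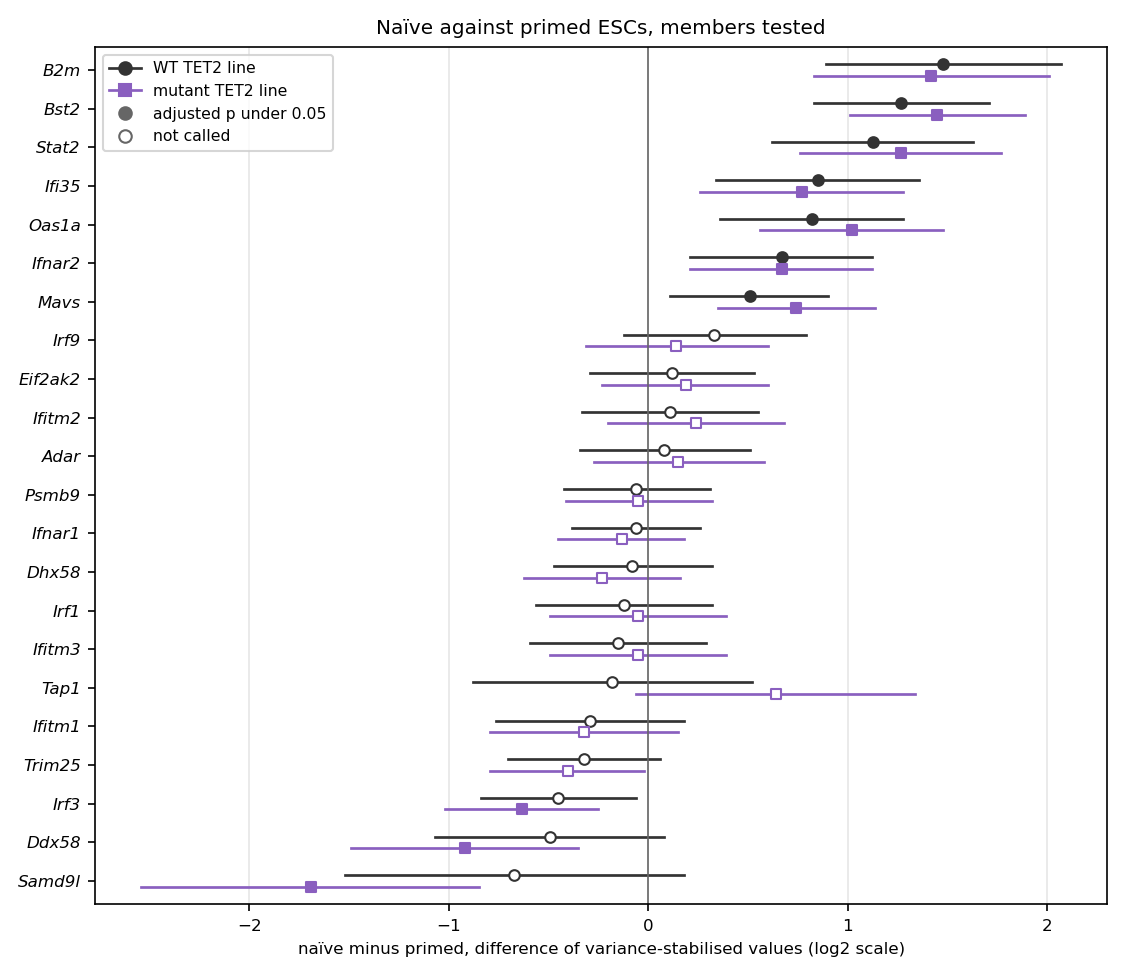
Difference between naïve and primed ESCs (x axis, log2 scale, variance-stabilised values) for the 22 tested members in the WT line (circles) and the mutant line (squares), with 95% confidence intervals from limma. Filled symbols were called; B2m, Bst2 and Stat2 lie above 1 in both lines, and Samd9l reaches -1.69 in the mutant line.

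The most clearly raised effector gene was Bst2 (chromosome 8, positions 74058163 to 74061336 of mm9). Bst2 had 1458, 1783 and 991 normalised reads in the naïve WT libraries and 2011, 2223 and 1756 in the naïve mutant libraries, against 546, 531 and 580 and 891, 751 and 533 in primed ESCs. Every naïve library lay above every primed library. The difference was 1.27 (SE 0.21, limma, adjusted p = 0.000211) in the WT line and 1.45 (SE 0.21, adjusted p = 6.59e-05) in the mutant line, or 2.56-fold and 2.75-fold in mean normalised reads. In bulk RNA a change in the share of cells that express a gene and a change in the RNA per cell cannot be told apart.

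B2m (chromosome 2, positions 121973422 to 121978819) encodes the light chain of MHC class I. B2m had 275, 211 and 120 normalised reads in the naïve WT libraries and 267, 264 and 122 in the naïve mutant libraries, against 50, 53 and 56 and 61, 47 and 79 in primed ESCs. The groups did not overlap, although replicate 3 was the lowest naïve library in both lines. The difference was 1.48 (SE 0.28, limma, adjusted p = 0.000712) in the WT line and 1.42 (SE 0.28, adjusted p = 0.00104) in the mutant line, or 3.8-fold and 3.48-fold in mean normalised reads. The other tested members with a role in antigen presentation were not called, and genes of antigen presentation outside the member list are given below. Psmb9, an immunoproteasome subunit gene, differed by -0.06 and -0.05 between media, and Tap1, a peptide transporter gene, by -0.18 (adjusted p = 0.709) and 0.64 (adjusted p = 0.145). The Tap1 libraries spread widely, at 109, 33 and 21 normalised reads in naïve WT, 112, 84 and 41 in naïve mutant, 60, 43 and 59 in primed WT and 44, 41 and 34 in primed mutant libraries. Without naïve mutant replicate 3 or naïve WT replicate 1 the mutant difference of Tap1 was called (0.94, adjusted p = 0.0441, and 0.64, adjusted p = 0.0452), and without naïve mutant replicate 1 it was 0.41 (adjusted p = 0.438).

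Among the transcription factors, Stat2 (chromosome 10, positions 127707629 to 127729905) was raised. Stat2 had 489, 398 and 441 normalised reads in the naïve WT libraries and 501, 337 and 468 in the naïve mutant libraries, against 162, 159 and 255 and 109, 163 and 238 in primed ESCs. Its lowest naïve library had more reads than its highest primed library in each line. The difference was 1.13 (SE 0.24, limma, adjusted p = 0.0017) in the WT line and 1.27 (SE 0.24, adjusted p = 0.000736) in the mutant line, or 2.31-fold and 2.56-fold in mean normalised reads. Irf9, the DNA-binding partner of STAT2, was not called, at 0.33 (adjusted p = 0.241) and 0.14 (adjusted p = 0.645), nor was Irf1, at -0.12 and -0.05. Irf3 (chromosome 7, positions 52253018 to 52258218) went the other way. Irf3 had 195, 272 and 289 normalised reads in the naïve WT libraries and 213, 217 and 309 in the naïve mutant libraries, against 352, 329 and 369 and 430, 390 and 359 in primed ESCs. The naïve libraries lay below the primed libraries in both lines, and the difference was -0.63 (SE 0.18, limma, adjusted p = 0.0131) in the mutant line and -0.45 (SE 0.18, adjusted p = 0.0644) in the WT line. Without naïve mutant replicate 1 or 2 the mutant call was lost (adjusted p = 0.0629 and 0.0591). Without naïve WT replicate 3 or naïve mutant replicate 3 the WT difference was called (adjusted p = 0.0459 and 0.0467), as it was with quantile normalization (-0.48, adjusted p = 0.049), while without naïve WT replicate 1 it was -0.29 (adjusted p = 0.245).

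Of the sensors, Ddx58 and its adaptor Mavs were both called in the mutant line, in opposite directions. Mavs had 450, 361 and 261 normalised reads in the naïve WT libraries and 360, 276 and 298 in the naïve mutant libraries, against 253, 223 and 237 and 183, 179 and 162 in primed ESCs. Mavs (chromosome 2, positions 131059799 to 131073761) was higher in naïve ESCs by 0.51 (SE 0.19, limma, adjusted p = 0.0428) in the WT line and by 0.74 (SE 0.19, adjusted p = 0.00583) in the mutant line, or 1.5-fold and 1.78-fold in mean normalised reads. The WT call was close to the threshold. It was lost without naïve WT replicate 1 or 2 (adjusted p = 0.185 and 0.104), without primed WT replicate 1, 2 or 3 (adjusted p = 0.0802, 0.110 and 0.103) and without primed mutant replicate 2 (adjusted p = 0.0556). It was also lost with median centring (adjusted p = 0.0535), with quantile normalization (adjusted p = 0.0525), without a filter on low values (adjusted p = 0.0515), with the 6 libraries of the WT line alone (adjusted p = 0.0573) and in the fit with a block for replicate number (adjusted p = 0.0556). Ddx58 had 208, 415 and 539 normalised reads in the naïve WT libraries and 175, 232 and 344 in the naïve mutant libraries, against 536, 575 and 456 and 417, 532 and 505 in primed ESCs. Ddx58 (chromosome 4, positions 40150806 to 40186861) was lower in naïve ESCs of the mutant line by -0.92 (SE 0.27, limma, adjusted p = 0.0148), with no overlap, and had 0.517 times the primed reads. In the WT line its libraries overlapped, and the difference was -0.49 (SE 0.27, adjusted p = 0.168). Without naïve WT replicate 3, its highest naïve library, the WT difference was -0.76 (adjusted p = 0.0393), and without naïve WT replicate 1 it was -0.13 (adjusted p = 0.705). Without naïve mutant replicate 1 or primed mutant replicate 2 the mutant one was -0.71 and -0.85 (adjusted p = 0.0842 and 0.057). Dhx58, which encodes the RIG-I relative LGP2, had 5 to 22 normalised reads and was not called, at -0.08 and -0.23.

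Receptor genes differed from each other. Ifnar2 had 268, 284 and 145 normalised reads in the naïve WT libraries and 248, 257 and 189 in the naïve mutant libraries, against 119, 141 and 135 and 150, 121 and 136 in primed ESCs. Ifnar2 (chromosome 16, positions 91373028 to 91419696), which encodes the chain that binds interferon first, was higher in naïve ESCs by 0.67 (SE 0.21) in each line (limma, adjusted p = 0.0232 in WT and 0.0235 in mutant), or 1.76-fold and 1.71-fold in mean normalised reads. It shares 13% of its 75-base stretches with Il10rb, so a part of its reads could not be told from that gene. The WT call was lost without naïve WT replicate 1 or 2 or primed WT replicate 1 or 3 (adjusted p = 0.0842, 0.112, 0.0881 and 0.0575), and the mutant call without naïve mutant replicate 1 or 2 or primed mutant replicate 2 (adjusted p = 0.0797, 0.0903 and 0.0877). Ifnar1, the more abundant chain, had 521, 652 and 672 normalised reads in naïve WT, 462, 520 and 537 in naïve mutant, 616, 697 and 604 in primed WT and 529, 586 and 559 in primed mutant libraries. Its groups overlapped, with differences of -0.06 (95% confidence interval -0.38 to 0.26, adjusted p = 0.79) and -0.13 (-0.45 to 0.18, adjusted p = 0.516) from limma, and the first was 0.05 without naïve WT replicate 1.

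Effectors held further called genes. Oas1a had 284, 380 and 356 normalised reads in the naïve WT libraries and 378, 293 and 329 in the naïve mutant libraries, against 156, 187 and 198 and 212, 97 and 162 in primed ESCs. Oas1a (chromosome 5, positions 121346265 to 121357536), whose enzyme makes the second messenger that activates RNase L, was higher in naïve ESCs by 0.82 (SE 0.22, limma, adjusted p = 0.00773) and 1.02 (SE 0.22, adjusted p = 0.00193), or 1.89-fold and 2.12-fold in mean normalised reads, without overlap in either line. Its identity is uncertain, since 41.7% of its 75-base stretches occur also in the neighbouring copy Oas1g. Oas1g, whose reads are not fully separate from those of Oas1a, differed by 0.28 (limma, adjusted p = 0.297) in the WT line and was called higher by 0.74 (adjusted p = 0.00982) in the mutant line. Ifi35 had 169, 250 and 271 normalised reads in the naïve WT libraries and 261, 317 and 282 in the naïve mutant libraries, against 147, 107 and 93 and 235, 104 and 152 in primed ESCs. Ifi35 (chromosome 11, positions 101309721 to 101320012), an interferon-induced gene, was higher in naïve ESCs by 0.85 (SE 0.24, limma, adjusted p = 0.0117) and 0.77 (SE 0.24, adjusted p = 0.0201), or 1.99-fold and 1.75-fold in mean normalised reads. The reads were not stranded, and 16.8% of its exon bases overlap Gm11626 on the opposite strand. The WT call was lost without primed WT replicate 3 (adjusted p = 0.0598) and the mutant call without naïve mutant replicate 2 or primed mutant replicate 2 (adjusted p = 0.0754 and 0.123).

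Samd9l, which encodes a factor that restricts poxviruses, had few reads. Samd9l had 1, 11 and 35 normalised reads in the naïve WT libraries and 0, 1 and 13 in the naïve mutant libraries, against 18, 36 and 34 and 32, 26 and 85 in primed ESCs. In the mutant line the naïve libraries lay below the primed ones, with a difference of -1.69 (SE 0.40, limma, adjusted p = 0.00392) and 0.10 times the reads. In the WT line they overlapped, and the difference was -0.67 (SE 0.40, adjusted p = 0.203). Without naïve WT replicate 3 it was -1.09 (adjusted p = 0.0397), without naïve WT replicate 1 it was -0.26 (adjusted p = 0.65), and in the fit with a block for replicate number it was -0.67 (adjusted p = 0.0394). The difference between the lines was tested as an interaction and was 1.02 (95% confidence interval -0.18 to 2.22, limma, adjusted p = 0.976). This interaction was 0.60 to 1.44 over the fits without single libraries and at most 2.62 over all alternatives, and no alternative called it. Samd9l was therefore not shown to respond differently to medium in the 2 lines. The same held for Ddx58, with an interaction of 0.43 (-0.38 to 1.24, adjusted p = 0.976), and for Irf3, with 0.18 (-0.36 to 0.73, adjusted p = 0.977).

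Several abundant effectors, other than Bst2, were not called. Ifitm2 had 2891, 3899 and 2174 normalised reads in naïve WT, 3797, 3503 and 2807 in naïve mutant, 2472, 2972 and 2654 in primed WT and 3637, 2548 and 2421 in primed mutant libraries. The groups overlapped in both lines. Its differences were 0.11 (95% confidence interval -0.33 to 0.55, limma, adjusted p = 0.712) and 0.24 (-0.20 to 0.68, adjusted p = 0.387), and the first was -0.10 without naïve WT replicate 2. Ifitm1, Ifitm3, Eif2ak2 and Adar were not called either, with differences between -0.32 and 0.19. Trim25 was at -0.32 and -0.40 (limma, adjusted p = 0.181 and 0.0944).

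Bst2, B2m, Stat2 and Oas1a were called higher in both lines under every alternative fit, including each library left out in turn. Oas1a in the WT line, at 0.82, did not pass the alternative limit of a difference over 1. The exact two-sided permutation test of 3 libraries against 3 cannot give a p below 0.1, and it gave 0.1 for each of the 7 raised members in both lines. The groups did not overlap for 8 of 22 members in the WT line and 12 in the mutant line, against 50% and 43.5% of all tested genes. Without primed WT replicate 3, 4 members were called in the WT line, and these were Bst2, B2m, Stat2 and Oas1a. The plot of single libraries shows the spread behind each call.

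**Figure D3:**
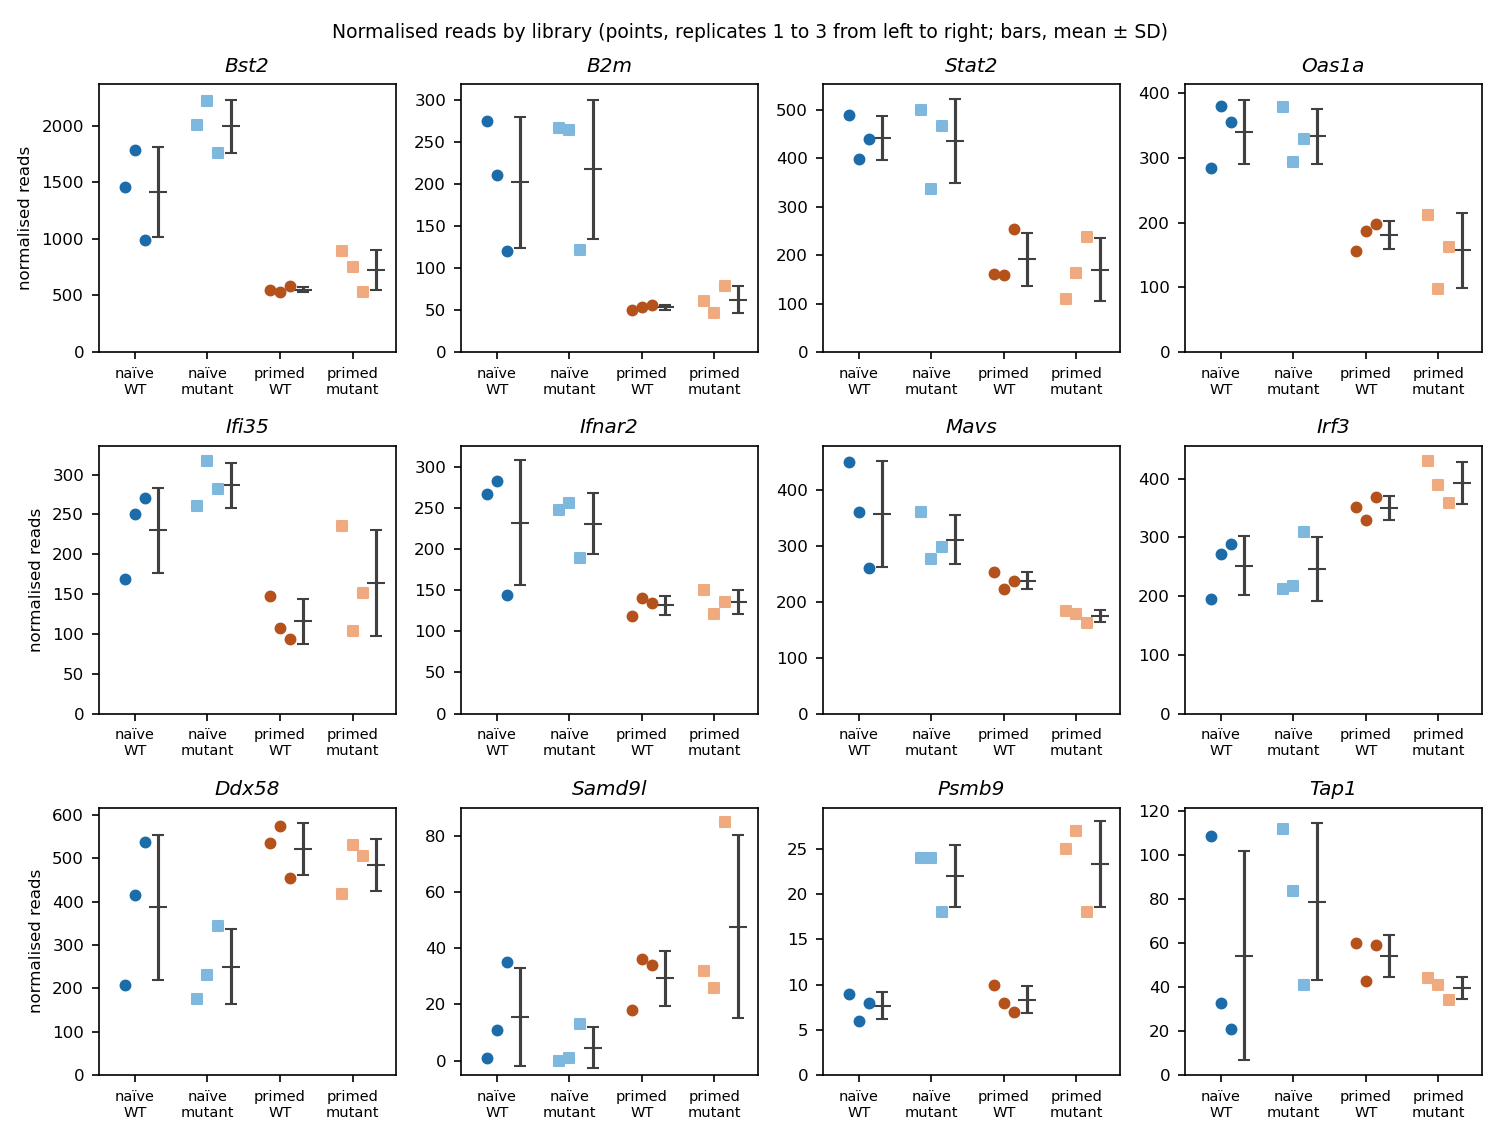
Normalised reads (y axis, linear) of the 10 called members and of Psmb9 and Tap1 in each library, with replicates 1 to 3 from left to right in each group and mean ± SD (n = 3) beside them. The naïve libraries hold 991 to 2223 reads of Bst2 and the primed ones 531 to 891, and the WT libraries hold 6 to 10 reads of Psmb9 and the mutant ones 18 to 27.

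WT TET2 was compared with mutant TET2 in each medium, with the Setdb1 shRNA in both lines. The lines differ in Tet2 RNA as well as in the catalytic site, and the parts of both in a difference between lines cannot be told apart. The paper reports similar levels of the WT and mutant proteins, and a difference in enzyme dose cannot be read from this RNA. In naïve ESCs 0 of 22 members were called (limma, adjusted p under 0.05), against 14 genes or 0.0987% of all tested genes (0.0916% higher with WT TET2 and 0.00705% lower). In primed ESCs 0 of 22 were called, against 36 genes or 0.254%. Of these 29 were higher with WT TET2 (0.204%) and 7 lower (0.0493%), with the split changing under other scalings (27 and 13 with median centring, 29 and 14 with quantile normalization). Without primed mutant replicate 2 the majority turned, with 15 higher and 21 lower. At an unadjusted p under 0.05 the counts were 2 members and 1882 genes in naïve ESCs, and 1 member and 2295 genes in primed ESCs. With limma-voom on the recovered reads 0 members were called in either medium. In naïve ESCs same-numbered libraries of the lines deviated together. There the limma fit with the replicate number as a block called 36 genes, 23 higher with WT TET2 and 13 lower. It called 0 members, the nearest being Psmb9 (adjusted p = 0.0974). The median difference of the members was 0.01 in naïve and -0.05 in primed ESCs, beside 0.00 and 0.01 over all genes. The interaction of line and medium called 0 members and 0 genes, with 0 members and 489 genes at an unadjusted p under 0.05 and 0 members by limma-voom.

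Of the single members, Psmb9 was the only one whose lines were without overlap in both media, and it was chosen for description after its values were seen. It had 9, 6 and 8 normalised reads in naïve WT against 24, 24 and 18 in naïve mutant libraries, and 10, 8 and 7 in primed WT against 25, 27 and 18 in primed mutant libraries. No WT library reached any mutant library in either medium. The mean normalised reads with WT TET2 were 0.359 times those with mutant TET2 in naïve and 0.375 times in primed ESCs, and the log2-scale difference was -0.65 (SE 0.17, limma, adjusted p = 0.241) and -0.63 (SE 0.17, adjusted p = 0.155). Psmb9 overlaps Tap1 on the opposite strand over 212 exon bases, and 8.22% of its 75-base stretches occur also in Tap1. Groups without overlap were found for 1 member in naïve ESCs (16.8% of all genes) and for 4 in primed ESCs (22.4%), where the others were Dhx58, Mavs and Ifnar1. The share of all genes without overlap in both media was not counted. Psmb9 was not alone in this, since outside the member list H2-D1 and Samhd1 also had lines without overlap in both media. With WT TET2, H2-D1 was lower (-0.55 and -0.45) and Samhd1 higher (0.36 and 0.38), and neither was called. Bst2 differed by -0.53 (95% confidence interval -0.97 to -0.09, limma, adjusted p = 0.314) in naïve and -0.35 (-0.79 to 0.09, adjusted p = 0.42) in primed ESCs, and its libraries overlapped in both. Within the 3 naïve pairs of the same number Bst2 was lower with WT TET2 in each, and the fit with a block gave an adjusted p of 0.128. The differences of B2m (-0.09 and -0.15), Stat2 (0.04 and 0.18) and Oas1a (0.02 and 0.22) between the lines were small beside their differences between media. Ddx58 differed by 0.53 (-0.04 to 1.11, limma, adjusted p = 0.401) in naïve and 0.10 (-0.47 to 0.68, adjusted p = 0.884) in primed ESCs. Its WT library had more reads in 3 of 3 naïve pairs (adjusted p = 0.117 with the block). Samd9l differed by 0.66 (-0.18 to 1.51, limma, adjusted p = 0.474) in naïve ESCs, where it was higher in 3 of 3 pairs (adjusted p = 0.125 with the block), and by -0.36 (adjusted p = 0.685) in primed ESCs. Leaving out single libraries moved these differences without a call. The naïve difference of Samd9l was 0.24 without naïve WT replicate 3 and 1.08 without naïve WT replicate 1, and that of Ddx58 was 0.26 and 0.90 without the same libraries. Naïve Bst2 was at -0.30 without naïve WT replicate 3 and at -0.71 without naïve WT replicate 2. Over the fits without single libraries primed Bst2 was at -0.55 to -0.19. Primed Samd9l was at 0.00 without primed mutant replicate 3 and at -0.58 without primed mutant replicate 2. The confidence intervals are wide enough to hold changes of some size, and values that miss the threshold are not shown to be equal.

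**Figure D4:**
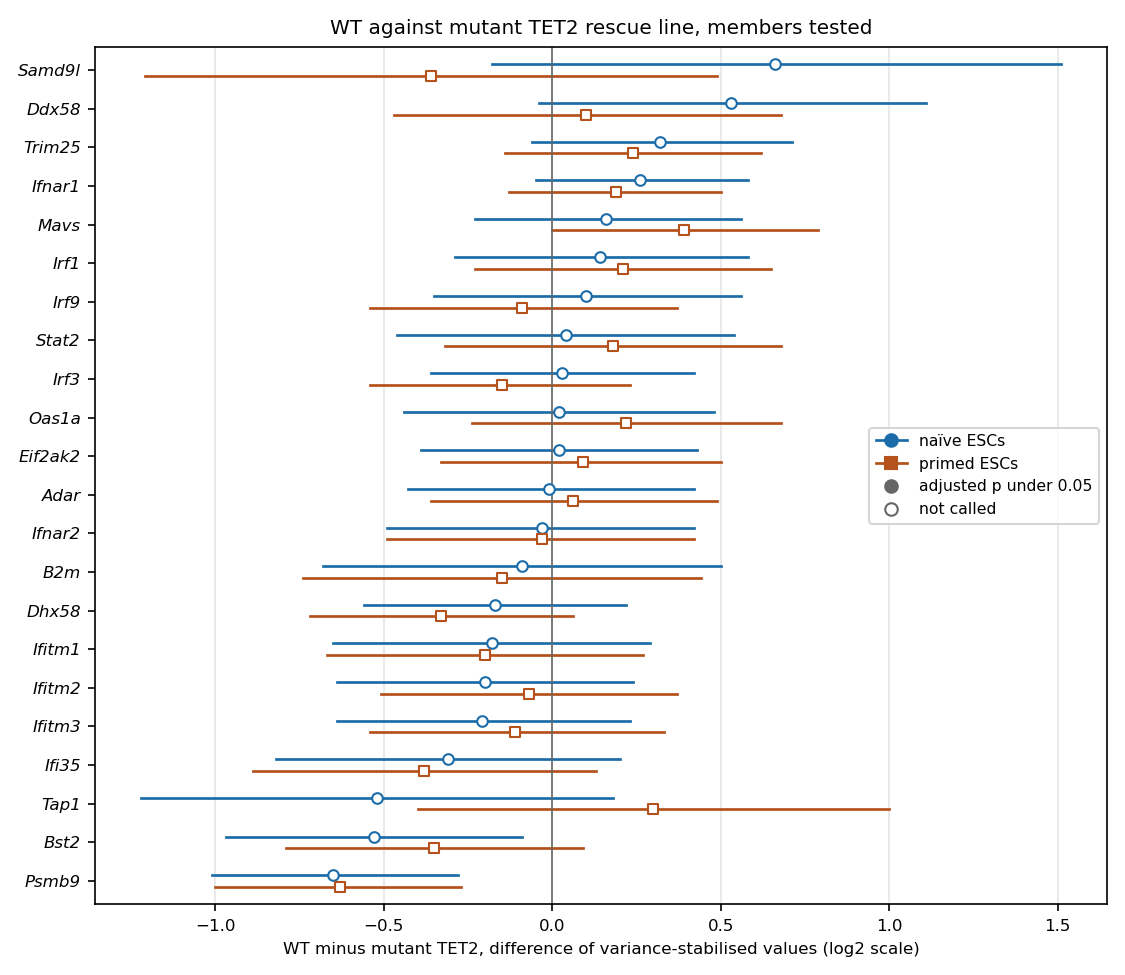
Difference between the WT and the mutant line (x axis, log2 scale, variance-stabilised values) for the 22 tested members in naïve (circles) and primed ESCs (squares), with 95% confidence intervals from limma. No symbol is filled, since no member was called, and Psmb9 lies lowest in both media, at -0.65 and -0.63.

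Other genes of the pathway were read from a list of 49, of which 47 were in the table and 35 were tested. In the WT line 5 were higher in naïve ESCs and 6 lower, and in the mutant line 6 higher and 7 lower (limma, adjusted p under 0.05), which is 31.4% and 37.1% of the 35 against 35.9% and 35.2% of all genes. The 10 genes called in both lines kept their sign and made up 90.9% of the WT and 76.9% of the mutant calls. Xaf1, an interferon-induced gene that promotes apoptosis, rose most. Xaf1 had 192, 219 and 143 normalised reads in the naïve WT libraries and 222, 269 and 146 in the naïve mutant libraries, against 9, 10 and 5 and 22, 15 and 17 in primed ESCs. Its difference was 2.86 (SE 0.22, limma, adjusted p = 9.39e-08) and 2.51 (SE 0.22, adjusted p = 4.66e-07), or 23.8-fold and 11.8-fold in mean normalised reads. Tmem173, which encodes STING, the adaptor of cytosolic DNA sensing, followed. Tmem173 had 100, 85 and 74 normalised reads in the naïve WT libraries and 128, 90 and 99 in the naïve mutant libraries, against 21, 10 and 14 and 18, 10 and 23 in primed ESCs. It was higher by 1.60 and 1.74 (SE 0.21 each, adjusted p = 2.17e-05 and 1.04e-05), or 5.89-fold and 6.23-fold. H2-K1, an MHC class I heavy chain gene, was higher by 0.59 (adjusted p = 0.0106) and 1.07 (adjusted p = 0.000122). The class I gene H2-D1 and Psme2, a proteasome activator subunit gene, were also called higher in both lines.

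Lower in naïve ESCs in both lines were Parp14, Parp9 and Dtx3l, which act in ADP-ribosylation and ubiquitylation and are known interferon targets, Nfkb1, a subunit of NF-kappaB, and Samhd1, a nucleotide phosphohydrolase gene. Parp14 had 35, 27 and 40 normalised reads in the naïve WT libraries and 43, 29 and 44 in the naïve mutant libraries, against 162, 124 and 138 and 96, 114 and 106 in primed ESCs. No naïve library reached a primed one, with differences of -1.52 (SE 0.18, limma, adjusted p = 1.11e-05) and -1.06 (SE 0.18, adjusted p = 0.000353). Nfkb1 had 133, 129 and 146 normalised reads in the naïve WT libraries and 172, 113 and 162 in the naïve mutant libraries, against 428, 298 and 394 and 335, 293 and 418 in primed ESCs. The differences were -1.29 and -1.10 (SE 0.19 each, adjusted p = 9.65e-05 and 0.000423). Dtx3l was at -0.84 and -0.92 (adjusted p = 0.00151 and 0.000857) and Parp9 at -0.76 and -1.03 (adjusted p = 0.00794 and 0.000961). Samhd1 was at -0.60 and -0.57 (limma, adjusted p = 0.00414 and 0.00583). Known interferon targets were found on both sides. Between the lines 0 of the 35 were called in either medium. Naïve H2-K1 came closest, a gene picked here after its values were seen, with 222, 203 and 184 normalised reads with WT and 358, 363 and 365 with mutant TET2, a difference of -0.76 (SE 0.16, limma, adjusted p = 0.125).

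**Figure D5:**
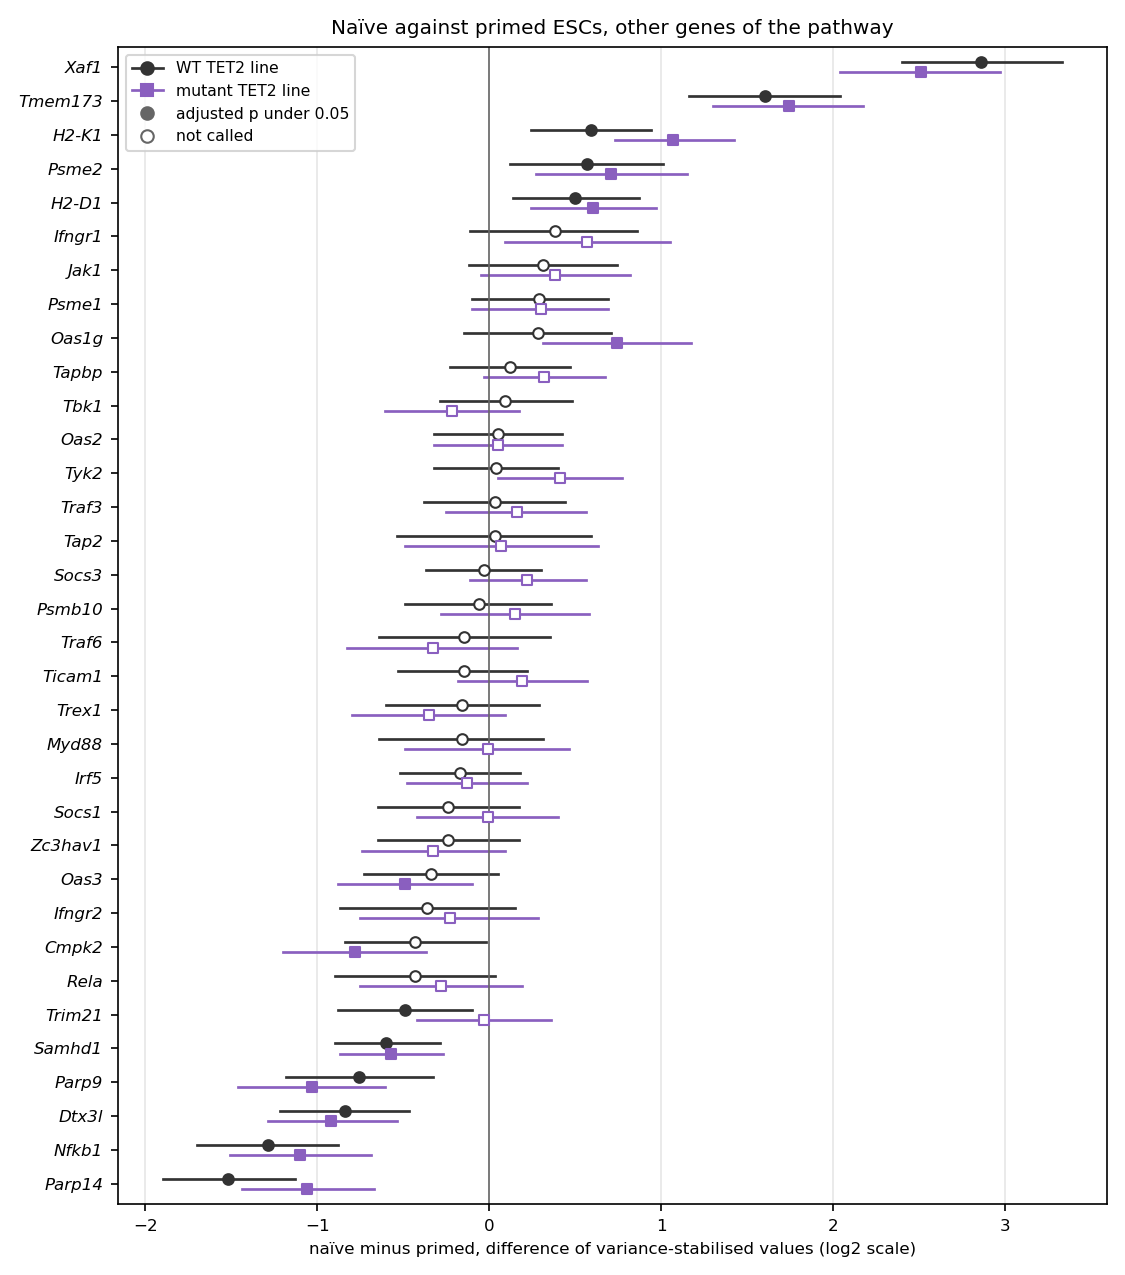
Difference between naïve and primed ESCs (x axis, log2 scale, variance-stabilised values) for 34 of the 35 tested other genes of the pathway in the WT line (circles) and the mutant line (squares), with 95% confidence intervals from limma. Filled symbols were called, from Xaf1 at 2.86 and 2.51 to Parp14 at -1.52 in the WT line and Nfkb1 at -1.10 in the mutant line.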

How the data were processed

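The deposited values were made by the authors from single-end reads trimmed with Trim Galore 0.3.3, aligned to mm9 with TopHat2 2.0.9 and transformed with DESeq2, so that each gene has a variance-stabilised value on a log2 scale in each library (3.81 for 0 reads). By the paper's methods, a read that matched several places equally well was given to 1 of them at random. Genes with shared stretches can therefore hold reads of each other. The program that counted reads per gene is not given in the sources used here. The transformation was inverted, and 100% of the values gave whole reads (within 1e-04), which gave the depth of 8066662 to 21335933 reads and the normalised reads. Groups were taken from the labels. Tests used limma 3.58.1 (R 4.3.3) on the 14185 genes with a mean at least 1 above that lowest value, in one fit of the 12 libraries and 4 groups with a variance trend and Benjamini-Hochberg adjustment over all genes tested, and genes were called at an adjusted p under 0.05. The procedure was also run on simulated data, with changes planted only in genes with many reads and only in the naïve WT group. That run does not cover members with few reads, and its outcome is not given here. Described in full were members called in any comparison and the most abundant member of each role. The members, lists, tests and naming rule were chosen with earlier results of these data known. Gene positions, exon lengths and shared stretches come from the GENCODE annotation of mm9. Shared stretches were sought in protein-coding transcripts only, so copies outside these were not covered. Same-numbered libraries, paired by the numbers in the labels, correlated in their deviations from the group means at 0.59, 0.30 and 0.39 for naïve WT against naïve mutant, so the numbers were taken to pair these only. Alternatives were a replicate block, median centring, quantile normalization, limma-voom, no variance trend, other filters and thresholds, 6 libraries only and each library left out. Leaving out replicate 3 of every group was added after seeing the data, because Lars2 took a smaller share of reads in it. In replicates 1, 2 and 3 this share was 1.04, 1.22 and 0.282% (naïve WT) and 1.08, 1.26 and 0.736% (naïve mutant). In primed ESCs it was 2.18, 2.11 and 0.872% (WT) and 2.36, 2.01 and 0.356% (mutant). The share thus also differed between media in replicates 1 and 2, and its part in the differences between media was not tested. One uncalled gene of the pathway list is not reported here by name. Tables were made with pandas 2.3.3 and numpy 2.4.6 in Python 3.11.15, and figures with matplotlib 3.10.9.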

Additional observations from a re-analysis of the deposited data

How the results depend on the processing

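Of 53 single differences, refitted in 1104 alternatives, 1054 kept their direction and their side of the threshold, 36 lost a call, 11 gained one and 3 changed sign. The last were uncalled, with Ifnar1 in the WT line at -0.12 to 0.05 and Ifitm2 at -0.10 to 0.32 over the fits without single libraries. The count of members called between media was 4 to 10 in the WT line (7 with all libraries, 4 without primed WT replicate 3) and 7 to 11 in the mutant line (10) without single libraries. It was 3 and 5 when a difference over 1 was also asked, since fewer genes can pass 2 limits. Between lines it was 0 in every alternative. Genes called between the lines in naïve ESCs numbered 14, 5 to 22 without single libraries, 9 with 6 libraries only, 9 without a filter and 36 with the replicate block. In primed ESCs they numbered 36, 12 to 82 without single libraries, 18 with 6 libraries only, 209 with the replicate block (115 higher with WT TET2 and 94 lower) and 23 without replicate 3 in all groups. For the interaction they numbered 0, and 1 without naïve WT replicate 1. The cause of these changes was not tested. With replicate 3 left out in all groups, chosen after seeing the data, 8 members were called in the WT line and 10 in the mutant line, and Ifi35 lost its call in both (adjusted p = 0.126 and 0.0539). Ddx58 (-0.85, adjusted p = 0.0227) and Samd9l (-1.01, adjusted p = 0.0193) gained one in the WT line and Tap1 (0.87, adjusted p = 0.0457) in the mutant line. The block changed 2 member calls, those of Mavs and Samd9l in the WT line. In pairs other than the naïve lines same-numbered libraries correlated at -0.15 to 0.22. Depth limits the 17 untested members and Samd9l, Psmb9 and Dhx58, which had few reads. The floors of 3 reads cover counting error only, and the confidence intervals rest on the spread between libraries.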
